A study of Mus musculus with 10 samples.

Results

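The genes described here encode the granule proteins, receptors and surface proteins of neutrophils and other myeloid cells. They were chosen by name, as 33 genes with a place in granulocyte biology, with earlier results of these data known. Of these, 32 had a row in the deposited table and were tested among 24704 genes. Fpr1 was not analysed here.

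RNA came from freshly isolated sinusoidal endothelium of mouse liver, the fenestrated cells that line its capillaries. In the 5 Gata4-LSEC-KO samples (called knockout below) a floxed allele of Gata4, a zinc finger transcription factor gene, was combined with Clec4g-icre, a Cre transgene under control sequences of Clec4g, a lectin gene of sinusoidal endothelium. The 5 control samples came from siblings labelled WT, and the sources used here give neither the alleles these siblings carried nor the age or sex of the mice. Each sample held the cells of 3 mice, which were taken with magnetic beads against CD146 after collagenase digestion and a density gradient, so leukocytes could pass only as far as beads and gradient let them. Values are log2 RMA values from 1-colour Affymetrix arrays, which means that a difference of 1 is a 2-fold ratio. The median of all values was 3.71.

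Neutrophils build their granules in an order. Primary (azurophil) granules, with myeloperoxidase and the serine proteases, are made at the promyelocyte stage in the bone marrow. Specific granules, with lactoferrin and cathelicidin, follow at the myelocyte stage, and gelatinase granules and most chemotaxis receptors come last. Transcripts of primary granules are therefore largely gone from circulating neutrophils, while those of the S100 alarmins and of receptors such as CXCR2 are abundant there. In the liver, neutrophils and monocytes patrol the sinusoids and adhere to the sinusoidal wall.

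C/EBP factors and PU.1 are known regulators of granulocyte genes, so the 250 bases before the start of each gene were searched on both strands for TTGCNNAA (C/EBP) and GAGGAAG (PU.1), each counted on its own, so that a base could belong to matches of both. The sequences of 4 genes that rose in the knockout and of 2 primary granule genes that did not pass the test are shown as examples. Shown are RefSeq sequences of GRCm38.p6, 5′ to 3′ on the strand of the gene, with every match to either motif in capitals.
S100a8 (chr3:90668821-90669070, + strand): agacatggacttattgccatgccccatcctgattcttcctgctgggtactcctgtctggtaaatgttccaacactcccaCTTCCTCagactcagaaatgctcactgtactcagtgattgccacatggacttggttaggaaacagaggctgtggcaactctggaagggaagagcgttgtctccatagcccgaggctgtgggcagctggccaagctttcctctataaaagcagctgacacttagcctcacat
S100a9 (chr3:90695722-90695971, - strand): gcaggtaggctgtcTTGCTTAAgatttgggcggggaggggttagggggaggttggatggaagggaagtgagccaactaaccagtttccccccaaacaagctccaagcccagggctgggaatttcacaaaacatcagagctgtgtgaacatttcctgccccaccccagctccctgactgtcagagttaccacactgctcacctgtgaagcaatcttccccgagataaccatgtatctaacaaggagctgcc
Ngp (chr9:110419558-110419807, + strand): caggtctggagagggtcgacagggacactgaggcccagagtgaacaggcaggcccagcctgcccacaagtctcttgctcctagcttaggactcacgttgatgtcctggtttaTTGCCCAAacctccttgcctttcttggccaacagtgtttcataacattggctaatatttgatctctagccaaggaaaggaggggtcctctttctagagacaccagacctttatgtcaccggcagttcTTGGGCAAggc
Ltf (chr9:111019042-111019291, + strand): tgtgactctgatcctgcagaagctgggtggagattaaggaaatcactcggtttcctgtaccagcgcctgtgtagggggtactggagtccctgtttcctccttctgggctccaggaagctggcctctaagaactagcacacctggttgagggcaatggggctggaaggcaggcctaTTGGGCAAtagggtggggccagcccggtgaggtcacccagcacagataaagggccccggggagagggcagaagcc
Mpo (chr11:87793534-87793783, + strand): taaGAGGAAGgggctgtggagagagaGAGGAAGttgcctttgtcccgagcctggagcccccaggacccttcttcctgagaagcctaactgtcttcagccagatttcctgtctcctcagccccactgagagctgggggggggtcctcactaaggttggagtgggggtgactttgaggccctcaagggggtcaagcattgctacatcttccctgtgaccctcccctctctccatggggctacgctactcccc
Prtn3 (chr10:79879417-79879666, + strand): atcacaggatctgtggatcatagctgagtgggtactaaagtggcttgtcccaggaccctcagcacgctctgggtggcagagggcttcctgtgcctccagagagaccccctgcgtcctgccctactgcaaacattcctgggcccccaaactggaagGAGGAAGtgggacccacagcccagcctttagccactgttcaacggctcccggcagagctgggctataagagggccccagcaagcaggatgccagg

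The promoters of Ngp and Ltf held C/EBP matches, 2 and 1 of them. That of S100a9 also held 1, while that of S100a8 held 1 PU.1 match and no C/EBP match. Mpo held 2 PU.1 matches and Prtn3 held 1, and neither held a C/EBP match. The promoters of Camp, Pglyrp1, Cd177 and Chil3, also specific granule genes, held no C/EBP match, and Pglyrp1 held 2 PU.1 matches. That of Ms4a3, in the class of primary granules and progenitors, held neither motif, so the genes shown do not stand for their classes. Promoters were found for 28 of the 32 members. A C/EBP match stood in 7 of the 28 (25%), against 9.56% of the promoters of 27018 genes. Of the 12 members that rose in the comparison below, 6 held one: Ltf, Ngp, Mmp8, S100a9, Anxa1 and Retnlg. The other was Ly6g. A PU.1 match stood in 11 of the 28 (39.3%), against 10.4% of the 27018, among them the primary granule genes Mpo, Elane, Prtn3 and Ctsg. Of the 12 that rose, 4 held a PU.1 match (33.3%): Mmp8, S100a8, Itgam and Ly6c2. These shares are descriptions, with no test, and a match is not a binding site.

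The 12 members past the threshold were higher in the knockout, and 20 members did not pass. Limma's moderated test with Benjamini-Hochberg adjustment over 24704 genes was used throughout, with a threshold of 0.05. The 12 are 37.5% of the measured members. Because the members were chosen with earlier results of these data known, the shares of all genes given beside theirs are no test. Among all genes 320 (1.30%) were higher, 209 (0.846%) were lower and 529 (2.14%) passed in either direction. No member was lower by limma's adjusted p. At an unadjusted p under 0.05, 22 members were higher and 1 was lower, against 7.07% and 6.57% of all genes (13.6% in either direction). Among the members the median log2 fold change was 0.98, against -0.02 over all genes, and 27 of the 32 lay above 0, as did 44.8% of all genes. The values of the groups did not overlap, with the knockout higher, for 15 members (46.9%) and for 2.55% of all genes. The count of 12 became 7 when each array was centred on its pan-endothelial markers, which moved the median of all genes to -0.13, and 5 without knockout replicates 2 and 4. Vwf, 1 of the 8 centring markers, was itself higher (1.02 ± 0.19, adjusted p = 0.0207). No member passed with the mean of leukocyte or of cholangiocyte markers as a covariate, as described with those markers below. For 8 of the 12 the control mean was at or under the median of all values, where detection was not assessed, so their fold changes compare array signals.

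**Figure D1:**
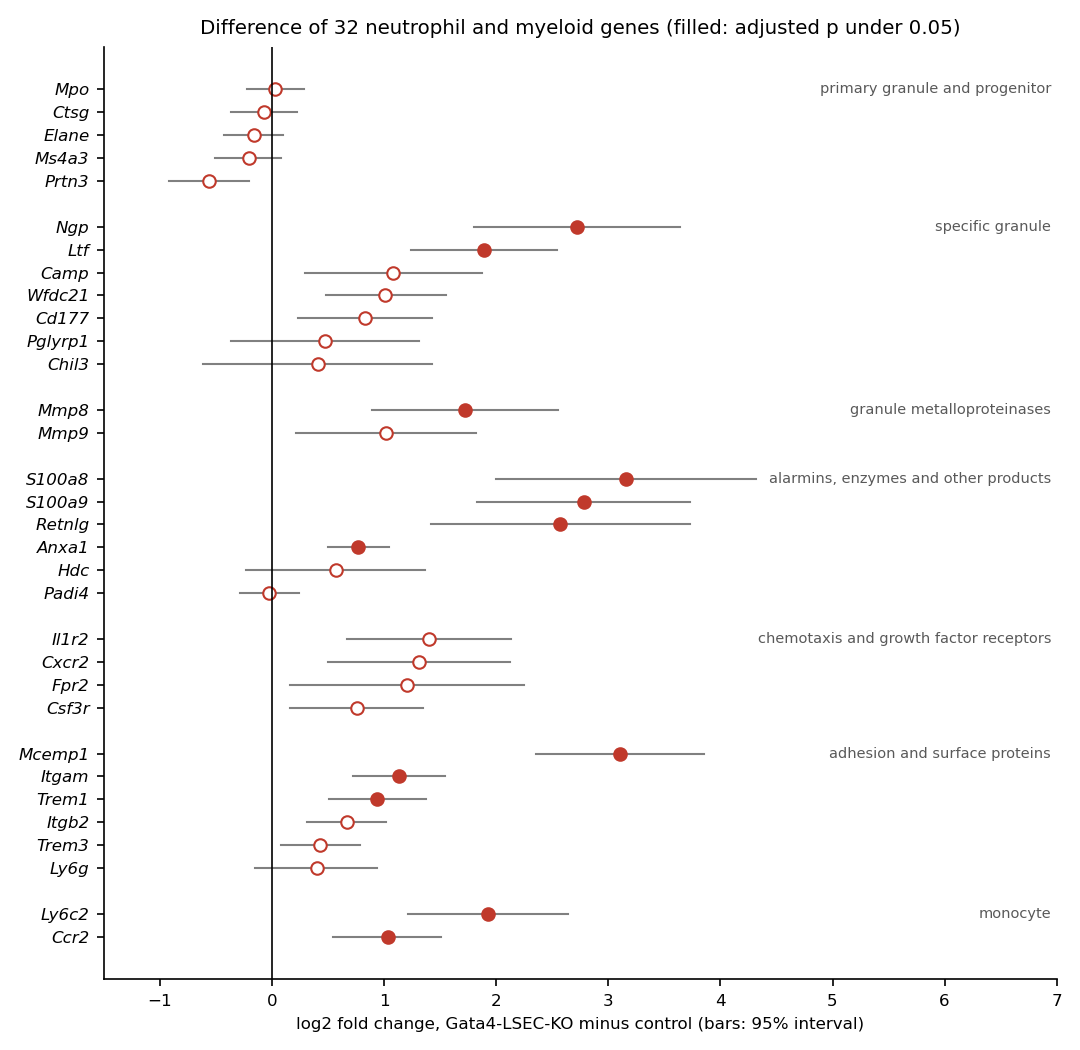
Log2 fold change (knockout minus control, x axis) of the 32 measured members by class, with 95% intervals of limma; filled points passed the adjusted threshold of 0.05. The 5 genes of primary granules and progenitors lie between -0.56 and 0.03, and the 12 filled points lie between 0.77 and 3.16.

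The array values as a whole bear on these counts as follows. Correlations across genes were 0.969 to 0.988 among 9 arrays and 0.920 to 0.944 between control replicate 1 and the others, and 737 genes passed without that array. Gata4 was at 8.59 ± 0.24 on knockout arrays and 8.71 ± 0.15 on control arrays (SD, n = 5; adjusted p = 0.742 by limma). The sources used here do not say whether its probes lie in the deleted part, so this value does not check the labels. Defining genes of sinusoidal endothelium were bright in both groups: the 7 measured had a mean of 10.56 to 11.01 on the knockout and 11.05 to 11.29 on the control arrays. These means did not overlap, with the knockout lower. Of the 7, 6 lay below 0 (median log2 fold change -0.53). Clec4g (-0.76 ± 0.14) and Mrc1 (-0.57 ± 0.13) passed by limma's adjusted p and were lower, as were 0.846% of all genes. The groups were apart in that direction for 3 of the 7 and for 2.37% of all genes. The part of this fall in the result was not tested. The RNA is that of a bulk cell preparation, in which more cells of a type and more RNA per cell cannot be told apart.

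S100a8 and S100a9 encode the subunits of calprotectin, a calcium-binding alarmin that is one of the most abundant cytosolic proteins of neutrophils. Their genes are neighbours on chromosome 3. S100a8 read 5.57, 8.45, 6.43, 7.50 and 6.49 in knockout replicates 1 to 5, and 2.55, 3.99, 4.92, 3.75 and 3.44 in control replicates 1 to 5. S100a9 read 5.42, 7.98, 6.20, 7.16 and 6.27 in the knockout and 3.36, 3.98, 4.69, 3.22 and 3.90 in the control, in the same order. For both genes every knockout array was above every control array, replicates 2 and 4 were the highest of the knockout, and replicate 1 was the lowest. Control replicate 3 was the highest control array for both. The log2 fold change of S100a8 was 3.16 ± 0.53 (SE, adjusted p = 0.00981), and that of S100a9 was 2.78 ± 0.43 (adjusted p = 0.00666).

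Among specific granule genes, Ngp and Ltf rose and 5 of the 7 measured did not pass. Ngp, which encodes neutrophilic granule protein, a relative of the cathelicidins, read 4.69, 6.75, 5.21, 6.83 and 5.26 in the knockout and 3.20, 3.15, 3.45, 3.23 and 2.12 in the control. Ltf, the gene of the iron-binding protein lactoferrin, read 3.93, 5.35, 4.14, 5.50 and 4.63 in the knockout and 2.86, 3.24, 2.97, 2.51 and 2.55 in the control. Neither gene overlapped between the groups, and replicates 2 and 4 were again the highest. The log2 fold change of Ngp was 2.72 ± 0.42, a ratio of 6.58 (adjusted p = 0.0063). For Ltf it was 1.89 ± 0.30, a ratio of 3.70 (adjusted p = 0.00694). Both had control means under the array median, 3.03 ± 0.52 and 2.82 ± 0.30 (SD, n = 5), a range in which detection was not assessed here.

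Camp, the cathelicidin gene, did not pass (log2 fold change 1.08 ± 0.36, adjusted p = 0.187), although its groups did not overlap. Its knockout values split: replicates 2 and 4 read 4.58 and 4.41, while replicates 1, 3 and 5 read 2.77, 3.02 and 2.64, close to the control range of 2.26 to 2.61. Wfdc21, a whey acidic protein family gene, lay just outside the threshold (1.01 ± 0.24, adjusted p = 0.0611), with knockout values of 4.85 to 6.34 and control values of 4.03 to 4.62. Its call appeared without knockout replicate 3 (adjusted p = 0.0386). Cd177, a neutrophil surface glycoprotein, was at 0.83 ± 0.27 (adjusted p = 0.18). The peptidoglycan-binding protein gene Pglyrp1 (0.47 ± 0.38) and Chil3, a chitinase-like lectin of neutrophils and macrophages (0.41 ± 0.47), had adjusted p-values of 0.655 and 0.763. Chil4, a close copy of Chil3, was at -0.03 ± 0.21, and it is uncertain how far the probes of the pair keep their signals apart.

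The 2 granule metalloproteinases differed in their call. Mmp8, neutrophil collagenase, read 3.66, 5.77, 4.49, 5.32 and 3.57 in the knockout and 2.71, 3.07, 2.74, 2.98 and 2.72 in the control. It was 3.29-fold higher (1.72 ± 0.38, adjusted p = 0.0424) on the array scale, with a control mean of 2.84 where detection was not assessed, and had the largest adjusted p of the 12. Knockout replicates 1 and 5 stood closest to the controls. Leaving out knockout replicate 2, 3 or 4, or any 1 of the 5 controls, ended its call (largest adjusted p 0.105). Mmp9, gelatinase B, read 4.47 to 6.42 in the knockout and 3.76 to 5.24 in the control, and did not pass (1.02 ± 0.37, adjusted p = 0.226).

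No gene of the primary granules passed by limma's adjusted p, and 1 of the 5, Prtn3, did at an unadjusted p under 0.05 (13.6% of all genes). Mpo, which encodes myeloperoxidase, the enzyme that makes hypochlorous acid, had means of 3.22 ± 0.19 (knockout) and 3.19 ± 0.11 (control; SD, n = 5). Its log2 fold change of 0.03 had a 95% interval of -0.22 to 0.28. The interval was -0.43 to 0.10 for Elane, neutrophil elastase, and -0.37 to 0.22 for Ctsg, cathepsin G. Ms4a3, a membrane protein gene of granulocyte and monocyte progenitors, was at -0.21, with an interval of -0.51 to 0.08. Upper bounds of 0.08 to 0.28 lay under the lower bounds of Ngp and S100a8, 1.80 and 2.00, which were among the members that rose most. Among the other specific granule genes the lower bound was -0.62 for Chil3, -0.37 for Pglyrp1 and 0.23 for Cd177. It was 0.29 to 1.24 for Camp, Wfdc21 and Ltf, so these intervals do not part the classes. Mpo, Elane, Ctsg and Ms4a3 read under the array median in both groups. Their intervals therefore describe array signals and set no limit on RNA below what the array detects.

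Prtn3, the gene of proteinase 3, pointed the other way. It read 3.16, 3.34, 3.29, 3.54 and 3.30 in the knockout and 4.35, 3.69, 4.19, 3.65 and 3.57 in the control. Each knockout array was below each control array, with knockout replicate 4 and control replicate 5 close together. The log2 fold change was -0.56 ± 0.16 and did not pass (adjusted p = 0.117). Of all genes 2.37% were apart in that direction. Means of the 5 genes of this class were 2.76 to 3.08 on the knockout and 3.05 to 3.30 on the control arrays, and no gene of the class but Prtn3 had a group mean above 3.71.

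**Figure D2:**
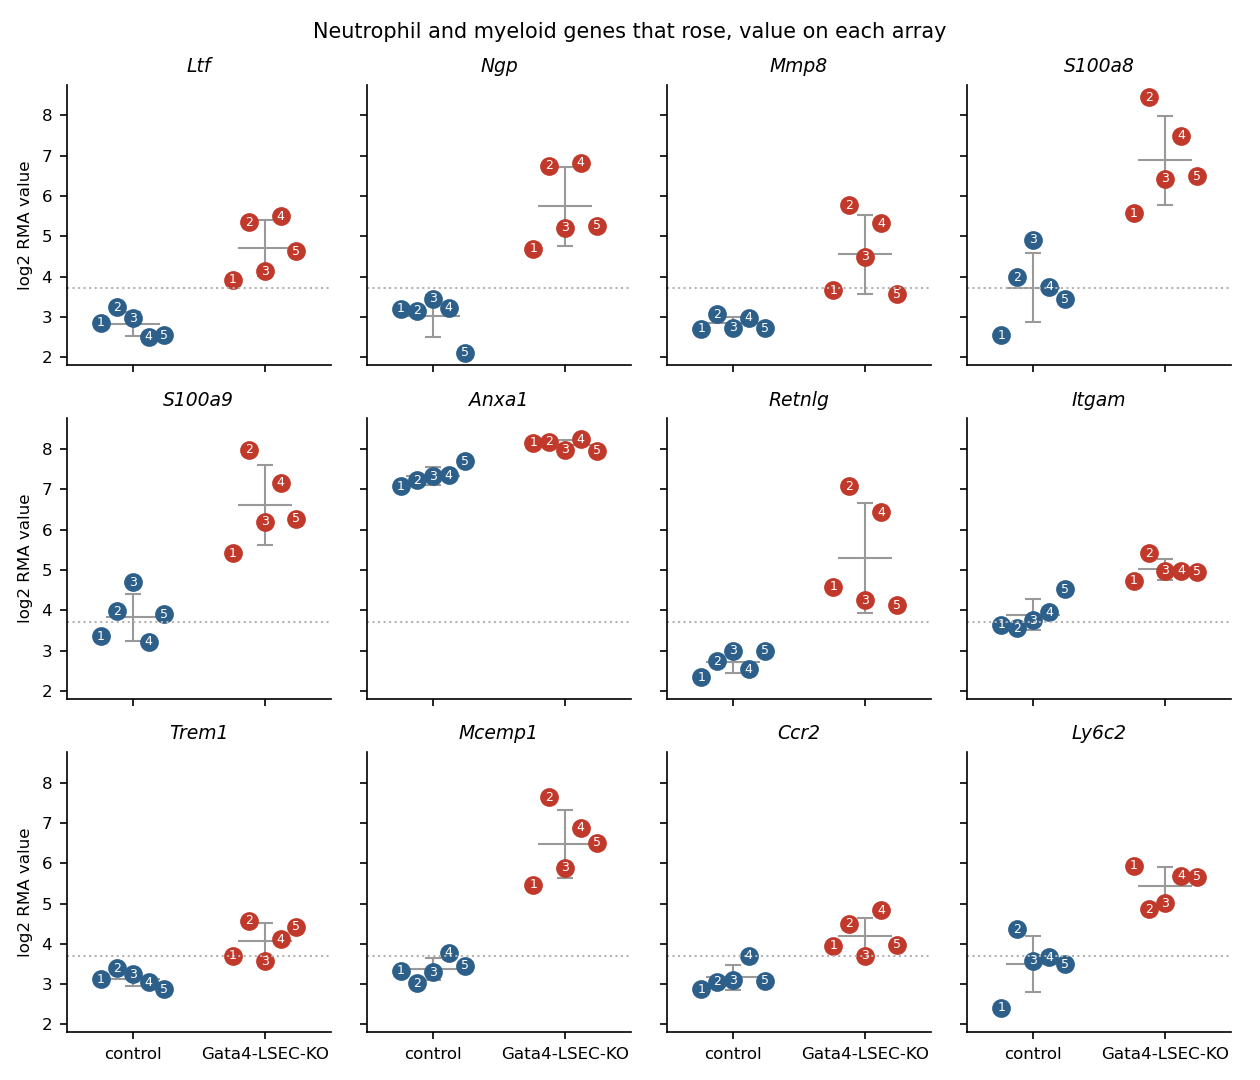
Log2 RMA values (y axis) of the 12 members past the threshold on each control and knockout array, numbered by replicate; grey lines are group means ± SD and the dotted line is the median of all values, 3.71. Replicates 2 and 4 are the highest knockout arrays for 10 of the 12 genes, and the groups overlap for Ccr2.

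Other products of neutrophils were mixed. Retnlg, a resistin-like secreted protein of neutrophils, read 4.58, 7.08, 4.25, 6.43 and 4.13 in the knockout and 2.34, 2.73, 3.00, 2.54 and 3.00 in the control. It rose by 2.57 ± 0.53 (adjusted p = 0.029), and its knockout SD of 1.36 was the widest of the members. Replicates 2 and 4 lay well above the other knockout arrays. Without knockout replicate 4, or without control replicate 2, 3, 4 or 5, it did not pass (largest adjusted p 0.0739).

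Anxa1, annexin A1, which limits neutrophil adhesion and is also made by many other cells, was even across arrays. It read 8.15, 8.18, 7.98, 8.24 and 7.96 in the knockout and 7.07, 7.23, 7.32, 7.35 and 7.69 in the control, bright on every array. The rise was small, 0.77 ± 0.12 (adjusted p = 0.00839), and the knockout SD was 0.13. Anxa1 lost its call when arrays were centred on pan-endothelial markers (0.66 ± 0.19, adjusted p = 0.16) and without knockout replicates 2 and 4 (0.70 ± 0.15, adjusted p = 0.11). Hdc, histidine decarboxylase, which makes histamine, was bright in both groups (7.15 ± 0.18 and 6.58 ± 0.93, SD, n = 5) and did not pass (adjusted p = 0.557). Padi4, the enzyme that citrullinates histones in neutrophil extracellular traps, was at -0.03 ± 0.12.

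None of the 4 measured receptors for chemotaxis and growth factors passed by limma's adjusted p, while each was higher at an unadjusted p under 0.05 (0.00135 to 0.0276), as were 7.07% of all genes. Il1r2, a decoy receptor for interleukin 1, came nearest (1.40 ± 0.33, adjusted p = 0.0578), and its groups did not overlap: 3.01 to 5.13 in the knockout against 2.23 to 3.00. Cxcr2, the receptor for neutrophil chemokines, was at 1.31 ± 0.37 (adjusted p = 0.109). Its knockout values of 4.36 to 5.97 overlapped the controls through control replicate 3, at 4.87, and it passed without that array (adjusted p = 0.0323). The formyl peptide receptor gene Fpr2 (1.20 ± 0.48) and Csf3r, the receptor of granulocyte colony-stimulating factor (0.76 ± 0.27), had adjusted p-values of 0.283 and 0.221. Csf3r passed without knockout replicate 1 (adjusted p = 0.0353), and Il1r2 without knockout replicate 5 (adjusted p = 0.025).

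Of 6 adhesion and surface protein genes, Itgam, Trem1 and Mcemp1 rose. Itgam, the integrin alpha M chain (CD11b) of neutrophils, monocytes and macrophages, read 4.73, 5.42, 4.98, 4.98 and 4.95 in the knockout and 3.64, 3.56, 3.75, 3.95 and 4.52 in the control. Its rise of 1.13 ± 0.19 (adjusted p = 0.00966) was even across the knockout arrays, and control replicate 5 came nearest to them. It did not pass with pan-endothelial centring (1.02 ± 0.24, adjusted p = 0.0567) or without knockout replicates 2 and 4 (1.00 ± 0.21, adjusted p = 0.101). Its partner chain Itgb2, which all leukocyte beta 2 integrins share, was at 0.67 ± 0.16 and just outside the threshold (adjusted p = 0.0605), with 5.95 to 6.64 in the knockout and 5.17 to 5.86 in the control.

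Trem1, a receptor that amplifies inflammatory signals in neutrophils and monocytes, read 3.71, 4.57, 3.57, 4.11 and 4.43 in the knockout and 3.12, 3.39, 3.24, 3.05 and 2.88 in the control. The rise was 0.94 ± 0.20 (adjusted p = 0.0315). It did not pass in fits that left out knockout replicate 2, 4 or 5, or control replicate 3, 4 or 5 (largest adjusted p 0.0909). Trem3, its neighbour on chromosome 17, was at 0.43 ± 0.16 (adjusted p = 0.24). Ly6g, the antigen by which mouse neutrophils are sorted, was dim in both groups, at 2.80 ± 0.46 and 2.40 ± 0.44 (SD, n = 5), and did not pass (0.40 ± 0.25, adjusted p = 0.552).

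Mcemp1, a membrane protein gene of mast cells, neutrophils and monocytes, had the smallest p of the members. It read 5.47, 7.64, 5.89, 6.88 and 6.51 in the knockout and 3.33, 3.02, 3.29, 3.78 and 3.46 in the control, 8.57-fold higher on the array scale (3.10 ± 0.34, adjusted p = 0.000744). The order of the knockout arrays for Mcemp1, from replicate 2 through 4, 5 and 3 to 1, was that of S100a8 and S100a9.

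Mcemp1 also lies 4 measured genes from Clec4g, whose control sequences drive the Cre transgene. Of the 10 measured genes up to 5 places on either side of Clec4g, 4 rose, against 1.30% of all genes. They were Mcemp1, Fcor (3.40 ± 0.23), Trappc5 (2.01 ± 0.12) and Cd209a (2.26 ± 0.32). The other 6 did not pass by limma's adjusted p. At an unadjusted p under 0.05 Fcer2a was higher (1.51 ± 0.39, adjusted p = 0.0813), as were 7.07% of all genes. Cd209b was lower there (-1.09 ± 0.25, adjusted p = 0.0529), as were 6.57% of all genes. Clec4g itself fell by 0.76 on the log2 scale (adjusted p = 0.0207). Trappc5, which encodes a subunit of a vesicle tethering complex, read 7.56 to 8.04 in the knockout and 5.63 to 5.99 in the control, with an SD of 0.22 between knockout arrays against 0.85 for Mcemp1. Fcor read 7.76, 7.98, 6.97, 7.98 and 7.53 in knockout replicates 1 to 5 and 3.63 to 4.68 in the control. Like Mcemp1, Fcor was highest in knockout replicates 2 and 4, while Trappc5 was highest in replicate 5 and Cd209a in replicate 1. Whether the rise of Mcemp1 belongs with the neutrophil genes or with the neighbours of Clec4g was not tested, and an effect of the transgene and one of the deletion cannot be told apart here.

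**Figure D3:**
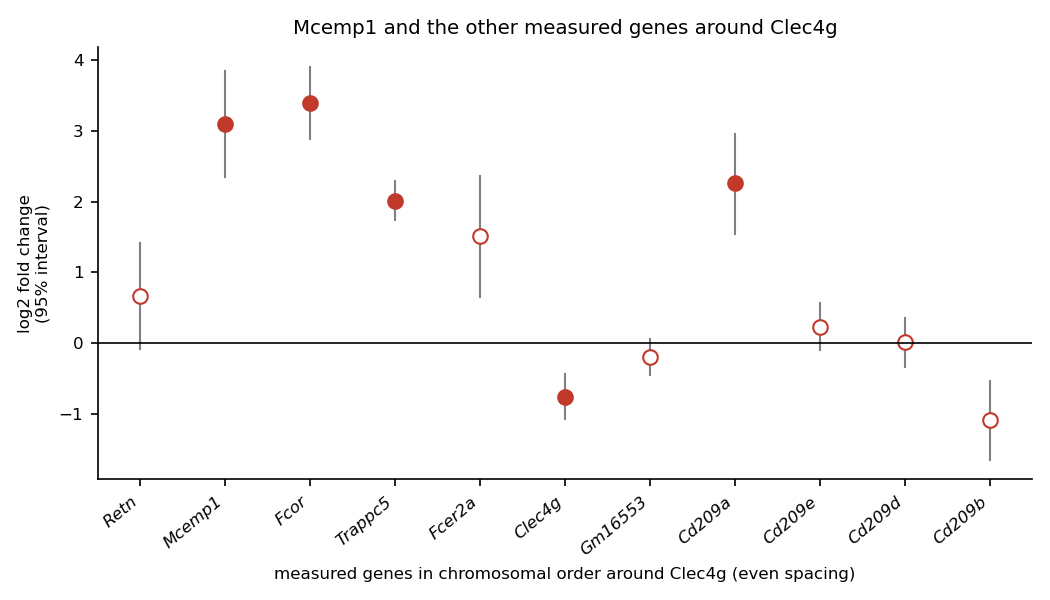
Log2 fold change (knockout minus control, y axis) with 95% intervals of limma for Clec4g and the 5 measured genes on either side, in chromosomal order and evenly spaced; filled points passed the threshold. Mcemp1 (3.10), Fcor (3.40), Trappc5 (2.01) and Cd209a (2.26) are above 0 and Clec4g (-0.76) is below.

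Both genes of the monocyte class rose. Ly6c2, which encodes the Ly6C antigen of inflammatory monocytes, read 5.94, 4.86, 5.01, 5.69 and 5.66 in the knockout and 2.41, 4.36, 3.58, 3.67 and 3.49 in the control, a rise of 1.93 ± 0.33 (adjusted p = 0.01). Here replicate 2 was the lowest knockout array and replicate 1 the highest, which swaps the extremes of S100a8. Replicates 4, 5 and 3 lay between them in the same order for both genes. The near-identical copy Ly6c1 was at 0.62 ± 0.20 (adjusted p = 0.17), and signal of the pair may be shared between their probe sets. Ccr2, the receptor by which monocytes leave the bone marrow, read 3.95, 4.50, 3.71, 4.83 and 3.98 in the knockout and 2.87, 3.06, 3.10, 3.71 and 3.09 in the control. It rose by 1.03 ± 0.22 (adjusted p = 0.0389) although control replicate 4 and knockout replicate 3 both read 3.71. Fits that left out knockout replicate 1, 2 or 4, or control replicate 1, 2, 3 or 5, did not call it (largest adjusted p 0.105).

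The knockout arrays thus did not carry these genes evenly. Replicates 2 and 4 were the 2 highest knockout arrays for 10 of the 12 genes that rose and for 23 of the 32 measured. The exceptions among the 12 were Trem1 and Ly6c2. Replicate 1 was the lowest knockout array for 6 of the 12 and for 14 of the 32. The mean of the 12 genes was 4.98, 6.38, 5.15, 6.12 and 5.32 in knockout replicates 1 to 5 and 3.29 to 3.84 in the control, so the lowest knockout array still stood above the highest control. The range within the group was wider in the knockout than in the control for 9 of the 12. Without knockout replicates 2 and 4, an alternative chosen after their values were seen, 5 members passed, Ltf, Ngp, S100a9, Retnlg and Mcemp1, as did 0.611% of all genes. The calls of S100a8 (2.43 ± 0.46, adjusted p = 0.0611) and Ly6c2 (2.03 ± 0.39, adjusted p = 0.0638) ended there, as did those of Mmp8, Anxa1, Itgam, Trem1 and Ccr2, and all 12 kept a log2 fold change above 0.

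**Figure D4:**
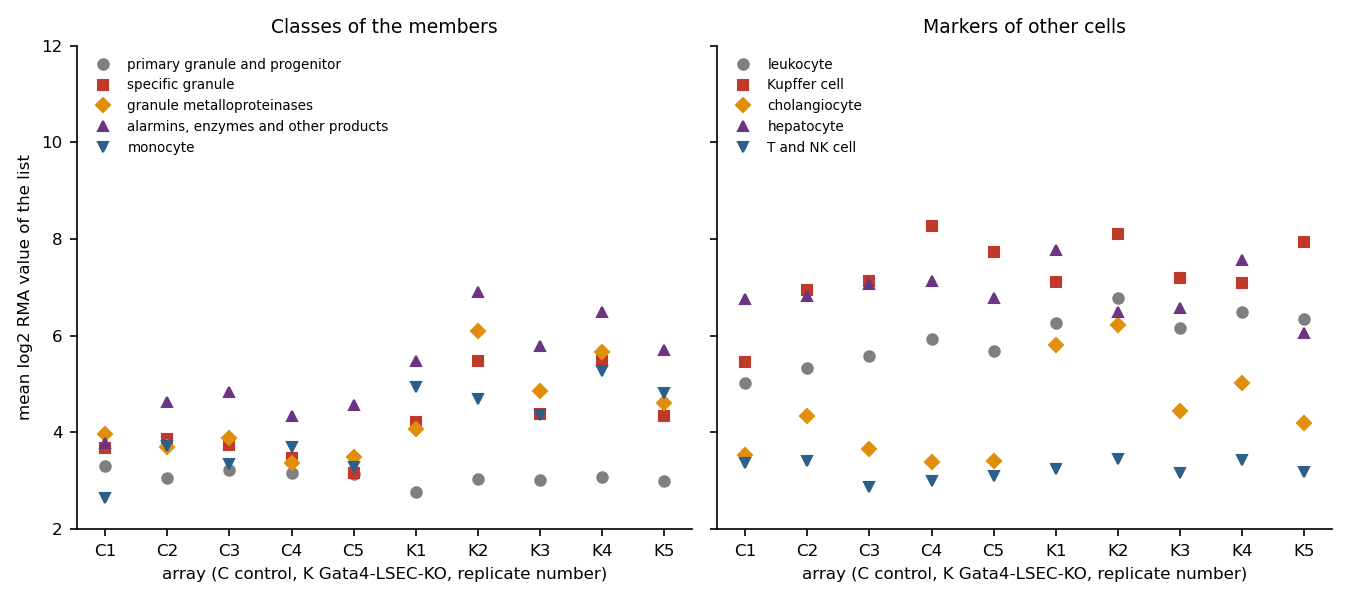
Mean log2 RMA value (y axis) of 5 of the classes of members (left) and of 5 marker lists of other cells (right) on the 5 control (C) and 5 knockout (K) arrays (x axis). Specific granule genes and granule metalloproteinases are highest in K2 and K4, primary granule genes stay between 2.76 and 3.30, and the leukocyte list is higher on every knockout array (6.15 to 6.77) than on any control array (5.02 to 5.93).

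Other genes of neutrophils were read from a list of 19, of which 16 were measured. Lcn2 and Hp rose, against 1.30% of all genes, and 14 did not pass by limma's adjusted p. Il1b, Stfa2l1, Clec4e, Slfn4, Clec4d, Slpi and Lrg1 (0.47 to 1.65) were higher at an unadjusted p under 0.05, as were 7.07% of all genes. Of the 16, 13 lay above 0 and 3 below. The groups did not overlap, with the knockout higher, for 5 of the 16 and for 2.55% of all genes. The siderophore-binding protein gene Lcn2, a specific granule gene that hepatocytes and epithelia also express, read 8.15, 9.21, 7.25, 8.48 and 7.17 in the knockout and 3.80, 5.19, 5.30, 4.61 and 4.91 in the control. It rose by 3.29 ± 0.40 (adjusted p = 0.00135). Hp, haptoglobin, which binds free haemoglobin and is made by hepatocytes and neutrophils, rose by 1.60 ± 0.34 (adjusted p = 0.0362), but not when knockout replicate 1, 2 or 4, or control replicate 2, 4 or 5, was left out (largest adjusted p 0.097). Hp was highest in knockout replicates 1 and 4 (7.52 and 7.40), the same arrays that carried the highest hepatocyte marker means (7.77 and 7.57), and the part of hepatocyte RNA in its rise was not tested. The median of the 16 was 0.54.

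None of the genes for the NADPH oxidase (5 measured), for granulocyte transcription factors (6) or for neutrophil and monocyte attracting or growth factors (14) passed by limma's adjusted p. At an unadjusted p under 0.05 there was 1 in the first list, Cyba (0.36 ± 0.14), and 0 in the second. In the third there were 4: Cxcl2, Cxcl12 (1.05 ± 0.43) and Ccl2 (0.81 ± 0.31) were higher and Il1a (-0.57 ± 0.16) was lower. Over all genes 13.6% passed that unadjusted threshold. Cxcl2, a ligand of CXCR2, was nearest to passing (1.95 ± 0.49, adjusted p = 0.0745). It read 4.00, 6.39, 4.32, 4.37 and 2.94 in the knockout and 1.90 to 2.75 in the control, and passed without knockout replicate 2 (adjusted p = 0.0488) or 5 (0.0213). The median log2 fold change was 0.33 for the oxidase, 0.11 for the factors and 0.06 for the ligands. Among 7 close relatives of members 0 passed by limma's adjusted p, and at an unadjusted p under 0.05 there were 3, Ly6c1, Itgal and Itgax, each higher.

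Markers of other cells moved with these genes to different degrees. The 5 general leukocyte markers had means of 6.15 to 6.77 on the knockout and 5.02 to 5.93 on the control arrays, which did not overlap. Of them Lsp1, an actin-binding leukocyte protein, rose (0.87 ± 0.17, adjusted p = 0.0234), and Ptprc (CD45) did not pass (1.17 ± 0.29, adjusted p = 0.0652). Neither Lsp1 nor Ptprc overlapped between the groups, with the knockout higher, as held for 2.55% of all genes. Ptprc, Cd52 (1.02 ± 0.30) and Laptm5 (0.97 ± 0.40) were higher at an unadjusted p under 0.05, as were 7.07% of all genes. Coro1a (0.43 ± 0.25) was not. Lsp1 kept its call only when the array left out was knockout replicate 1 or 5 or control replicate 1 (largest adjusted p 0.0698). The 10 Kupffer cell markers overlapped, at 7.08 to 8.10 and 5.45 to 8.27, and 0 of them passed. Their highest knockout arrays were replicates 2 and 5, not 2 and 4. With the Kupffer mean as a covariate 11 of the 12 members still passed, all but Mmp8. The lowest Kupffer mean of all arrays, 5.45, was that of control replicate 1. What part Kupffer cells had in the result was not tested.

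Lists of lymphocytes and of other granulocytes stayed close between the groups. The 8 T and NK cell markers had means of 3.16 to 3.44 in the knockout and 2.88 to 3.41 in the control. The ranges were 3.27 to 3.74 and 3.19 to 3.49 for 4 B cell markers, 2.13 to 2.24 and 2.13 to 2.25 for 6 mast cell and basophil markers, and 2.58 to 2.80 and 2.49 to 2.87 for 3 eosinophil markers. Erythroid (2.58 to 3.20 and 2.72 to 3.07), platelet (3.70 to 3.86 and 3.64 to 3.85) and haematopoietic progenitor lists (4.18 to 4.46 and 4.08 to 4.48) overlapped as well. Of the mast cell and basophil, eosinophil and erythroid genes 0 had a group mean above the median of all values, 3.71. Of the 8 T and NK cell genes 1 did in each group. Detection was not assessed under that median, so the values of these lists set no limit on such cells. No gene of these 7 lists passed by limma's adjusted p, and 4 did at an unadjusted p under 0.05, against 13.6% of all genes: Nkg7 (0.48), Pf4 (0.49) and Gata2 (0.33) were higher and Kit (-0.79) was lower. The 6 dendritic cell markers had means of 4.10 to 4.30 in the knockout and 3.63 to 4.08 in the control, which did not overlap. Their median log2 fold change was 0.09. Of them Cd209a rose, which is also a neighbour of Clec4g, and Itgax did not pass (0.70 ± 0.25, adjusted p = 0.217).

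The 7 stellate cell markers had means of 6.60, 8.12, 7.45, 6.22 and 7.23 on knockout replicates 1 to 5 and 5.25 to 7.21 on the control arrays, with replicate 2 the highest and replicate 4 the lowest of the knockout. All 7 lay above 0 (median 0.69). None passed by limma's adjusted p. At an unadjusted p under 0.05, 3 were higher, as were 7.07% of all genes: Col1a1 (1.23 ± 0.33), Des (0.98 ± 0.36) and Pdgfrb (0.77 ± 0.31). Col1a1, a fibrillar collagen chain gene, and Des, the gene of the filament protein desmin, did not overlap between the groups. Of all genes 2.55% were apart in that direction, with the knockout higher. The part of stellate cells in the result was not tested.

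Epithelial lists differed too. The 5 cholangiocyte markers had means of 5.81, 6.23, 4.45, 5.03 and 4.19 on knockout replicates 1 to 5 and 3.39 to 4.33 on the control arrays, and none passed by limma's adjusted p, while all 5 were higher at an unadjusted p under 0.05, against 7.07% of all genes. Replicates 1 and 2 were high there, replicates 2 and 4 for the members. The hepatocyte markers were highest in replicates 1 and 4 too, as given for Hp, where the other knockout arrays read 6.05 to 6.57 and the controls 6.76 to 7.12. Within that list Cyp2e1 (-1.52 ± 0.31, adjusted p = 0.0268) and Cyp2c29 (-1.90 ± 0.26, adjusted p = 0.00297), cytochrome P450 genes, fell and did not overlap, while Cps1 (1.12 ± 0.55) and Alb (0.96 ± 0.34), the albumin gene, did not pass. With the leukocyte mean as a covariate 0 members and 0 of all genes passed by limma's adjusted p, with 4 members and 2024 genes at an unadjusted p under 0.05. With the cholangiocyte mean 0 members and 0.247% of all genes passed, with 12 members and 1890 genes at an unadjusted p under 0.05. The leukocyte mean does not overlap between the groups, so a fit with it can hardly part it from the genotype. The cholangiocyte mean does overlap, with knockout replicate 5 at 4.19 and control replicate 2 at 4.33. Why the calls ended in the fit with the cholangiocyte mean was not tested. The part of leukocytes, cholangiocytes and hepatocytes in the result was not tested.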

How the data were processed

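Total RNA of 10 samples, 5 per group and 3 mice in each, was hybridised to 1-colour Affymetrix arrays, per the labels. The authors deposited log2 values. RMA is named in the submitters' processing notes, without a version. Sorted values differed by at most 0.00186 between arrays, and nothing was normalized again. No genome build is named in the sources used here, and detection calls were not used.

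Of 25428 probe sets, 24705 had 1 gene symbol and 0 had several in the platform annotation, and 723 were unnamed here. The brighter of 2 probe sets was kept for 1 symbol, which left 24704 genes. The comparison used lmFit and eBayes of limma (3.58.1, under R 4.3.3) on all arrays, without covariates or filter, in both directions, with Benjamini-Hochberg adjustment over the 24704 genes. Fold changes are knockout minus control ± SE. The spread behind each p-value is that between pools, each of 3 mice, and the number of arrays limits the precision. The fit was tested on simulated data. Alternatives were each array left out, a replicate block, other variance priors, a filter on dim genes, array weights, another centring and marker covariates, of which the leukocyte and cholangiocyte covariates and the fit without 2 knockout arrays were chosen after seeing the data.

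The members, classes and gene lists were chosen with earlier results of these data known. Named are the members, Gata4, Clec4g, and from other lists up to 4 genes past the threshold or else up to 2 with the smallest p, besides Lcn2, Ly6c1 and Chil4. Genes named outside this rule were chosen after their values were seen. They were Cxcl12, Ccl2, Itgal, Ptprc, Pdgfrb, Cps1, Alb, Fcor, Trappc5, Fcer2a and Cd209b. From the lists of neutrophil products and leukocyte markers they were also Il1b, Stfa2l1, Clec4e, Slfn4, Clec4d, Slpi, Lrg1, Cd52, Laptm5 and Coro1a. Same-numbered knockout and control arrays did not deviate together (r of -0.16 to 0.04 across genes), so the numbers were not used as pairs.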

Additional observations from a re-analysis of the deposited data

Results flagged for a closer look

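In 6 of 112 groups of 5 arrays examined (members, other named genes and marker means) 1 array stood far from the rest, by a gap of more than 0.71 of the group's range. Chance flags about 5% of such groups. Among controls, Ngp was low in replicate 5 (2.12, next 3.15), Hdc was low in replicate 1 (4.96, next 6.74), Il1r2 was high in replicate 3 (3.00, next 2.43), and Ccr2 was high in replicate 4 (3.71, next 3.10). The cholangiocyte marker mean was high in control replicate 2 (4.33, next 3.66). In the knockout, Pglyrp1 was high in replicate 2 (6.60, next 5.79).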

How the results depend on the processing

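The count of members that rose, 12, ranged from 8 to 12 when 1 array was left out, and 8 genes passed in every such fit: Ltf, Ngp, S100a8, S100a9, Anxa1, Itgam, Mcemp1 and Ly6c2. Of these 8, Anxa1 and Itgam lost their calls with pan-endothelial centring, and S100a8, Anxa1, Itgam and Ly6c2 without knockout replicates 2 and 4. The count was 7 when arrays were centred on pan-endothelial markers, 5 without knockout replicates 2 and 4, and 0 with the leukocyte or the cholangiocyte mean as a covariate (4 and 12 members at an unadjusted p under 0.05 by limma). With array weights 15 members passed, Il1r2, Itgb2 and Wfdc21 among them, as did 4.33% of all genes. With the filter on dim genes 11 of the 18 members tested passed, Itgb2 and Wfdc21 among them, as did 4.79% of the genes kept. The count of members that were lower was 0 in every setting run. Over all genes the count of 529 ranged from 287 to 737 with 1 array left out, and was 275 with the replicate block, 1070 with array weights, 310 with the other centring, 151 without knockout replicates 2 and 4, 0 with the leukocyte covariate (2024 at an unadjusted p under 0.05) and 61 with the cholangiocyte covariate. With the replicate block 8 members passed, the calls of Anxa1, Retnlg, Trem1 and Ly6c2 ended, and none of the 5 knockout arrays correlated best with the control array of its number. The cause of these changes was not tested.

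Signs turned for 9 members and Gata4, none of which passed in the main comparison or in the setting named. Mpo was at -0.08 with the other centring and -0.09 with the leukocyte covariate, and at -0.04 to 0.09 with 1 array left out. Ctsg was at -0.14 to 0.00 with 1 array left out. Padi4 was at 0.00 to 0.03 without knockout replicate 1 or 5 or control replicate 2, and at 0.02 with array weights. Chil3 was at -0.16 without knockout replicates 2 and 4 and -0.15 with the cholangiocyte covariate, which also turned Ms4a3 (0.11), Pglyrp1 (-0.49) and Gata4 (0.16). The leukocyte covariate turned Hdc (-0.42), Fpr2 (-0.43) and Ly6g (-0.53). Detection was not assessed under the median of all values, 3.71, which limits the 9 members with both means there (Mpo, Elane, Ctsg, Ms4a3, Camp, Chil3, Padi4, Ly6g and Trem3) and the folds of the 8 that rose from a control mean there.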
